A study of Mus musculus with 10 samples.

Results

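The genes described here encode the proteins of the 2 ribosomes of a mouse cell, measured in the midbrain of arthritic and control mice. Members were taken from the array's probe-to-gene table by symbol: probes with a single symbol starting with Rpl or Rps and a digit (Rps6k kinases left out) for the cytosolic ribosome, or with Mrpl or Mrps and a digit for the mitochondrial ribosome. This gave 90 of 10080 probes, for 88 genes: 38 cytosolic probes for 36 genes and 52 mitochondrial probes for 52 genes. A probe listed for both Rpl12 and a small nucleolar RNA was left out because it has several symbols.

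Midbrain RNA of male DBA/1 mice, an inbred strain prone to arthritis when immunised with type II collagen, was hybridised to 2-colour oligonucleotide arrays printed in house. The collagen group was injected into the skin at 8 weeks of age with 100 ul of collagen and 100 ul of Complete Freund's adjuvant together; the control group had 200 ul of adjuvant without collagen. LPS, an endotoxin from bacteria, was given to both groups at day 24, so adjuvant and LPS are common to all samples; the label for the time of death reads 31, with an unclear unit. Each of the 10 arrays held both RNAs, and the arrays form 5 dye-swap pairs of 3 biological replicates: 2 pairs each for replicates 1 and 2 and 1 pair for replicate 3. The number of animals behind an RNA is not stated in the labels. The p-values rest on the spread between these 3 replicates, with the spread of each probe drawn towards that of all tested probes.

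The cytosolic ribosome translates the messages of nuclear genes. Its protein genes are among the most strongly transcribed housekeeping genes, and their messages carry a pyrimidine tract at the 5′ end through which the mTOR pathway controls their translation. The mitochondrial ribosome is built from other proteins, also encoded in the nucleus and imported, and makes the few proteins encoded by mitochondrial DNA, all of them subunits of the respiratory chain and ATP synthase. In neurons both ribosomes serve a high demand for protein and ATP.

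All ratios are log2 of collagen over control, so values below 0 stand for less RNA in the collagen group. No source states which scanner channel is which dye; channel A was read as Cy3 because Cy3 is the first dye in the labels, which makes the direction likely only. Under the opposite reading all signs of these ratios, and all counts by their direction, would be reversed. Values of channel B over A, and those of the authors' value table, would stay as they are. Each replicate value is a mean over scans, arrays and dye-swap pairs. On the 10 arrays 4496 to 8425 probes gave a ratio, and 54 to 86 of the members did. As a check of the tissue label, all 7 dopamine neuron markers with a probe gave a value in every replicate, among them Th, the enzyme that limits dopamine synthesis; 5 of 6 cerebellar markers with a probe did so too, and no red cell marker has a probe. In tissue RNA, fewer cells of a type and less RNA per cell cannot be told apart.

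Ribosomal protein probes were read far more often than the array as a whole. All 3 replicates gave a value for 34 of 38 cytosolic probes (89.5%) and 40 of 52 mitochondrial probes (76.9%), against 4139 of 10080 probes in all (41.1%). In replicate 1 there were 37 cytosolic and 48 mitochondrial values, in replicate 2 there were 37 and 49, and in replicate 3 there were 36 and 42. Of the cytosolic members, Rpl26, Rps19, the muscle-specific paralogue Rpl3l and the second Rpl11 probe had a value in 2 replicates. The same held for 9 mitochondrial members: Mrpl10, Mrpl13, Mrpl15, Mrpl28, Mrpl39, Mrpl55, Mrpl58, Mrps18b and Mrps22. Mrpl45 had a value in 1 replicate, and Mrpl21 and Mrpl44 had none. The other 74 members were tested; counts below cover these, not all 90.

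No ribosomal protein probe passed the test between the groups. Over all 4139 tested probes limma called 0 (0%) at a Benjamini-Hochberg adjusted p under 0.05, and the 74 members likewise gave 0. At an unadjusted p under 0.05 there were 0 members, where all tested probes gave 163 (3.94%). The lowest unadjusted p among members was 0.0859, for Mrpl49, and member adjusted p-values from limma ran from 0.827 to 0.997. For 74 of 74 members the 95% interval, each taken on its own, stayed within 1.5-fold of no change in either direction, against 93.2% of all tested probes. It stayed within 1.3-fold for 31 of 34 cytosolic and 34 of 40 mitochondrial members, against 2978 of 4139 tested probes.

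Both ribosomes had medians slightly below 0, except that the mitochondrial median was 0.0026 with median centring in place of loess. The median over cytosolic members was -0.047, with 27 lower and 7 higher (79.4% lower), and over mitochondrial members it was -0.066, with 30 lower and 10 higher (75% lower); all tested probes had a median of -0.025 with 59.2% lower. With median centring 20 of 40 mitochondrial members were lower, and with ratios recentred on all tested probes 21 of 34 cytosolic and 27 of 40 mitochondrial members were lower. Print-tip loess also left 21 of 34 cytosolic members lower, while scaling between arrays left 32 of 34. Mean ratios ran from -0.20 (Rpl7l1) to 0.11 (Rps20) among cytosolic and from -0.23 (Mrps18a) to 0.13 (Mrps9) among mitochondrial members. Sorted by the letter of the symbol, 20 large-subunit cytosolic members had a median of -0.047 and 14 small-subunit members -0.057; for the mitochondrial ribosome, 24 large-subunit members had -0.069 and 16 small-subunit members -0.062.

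**Figure D1:**
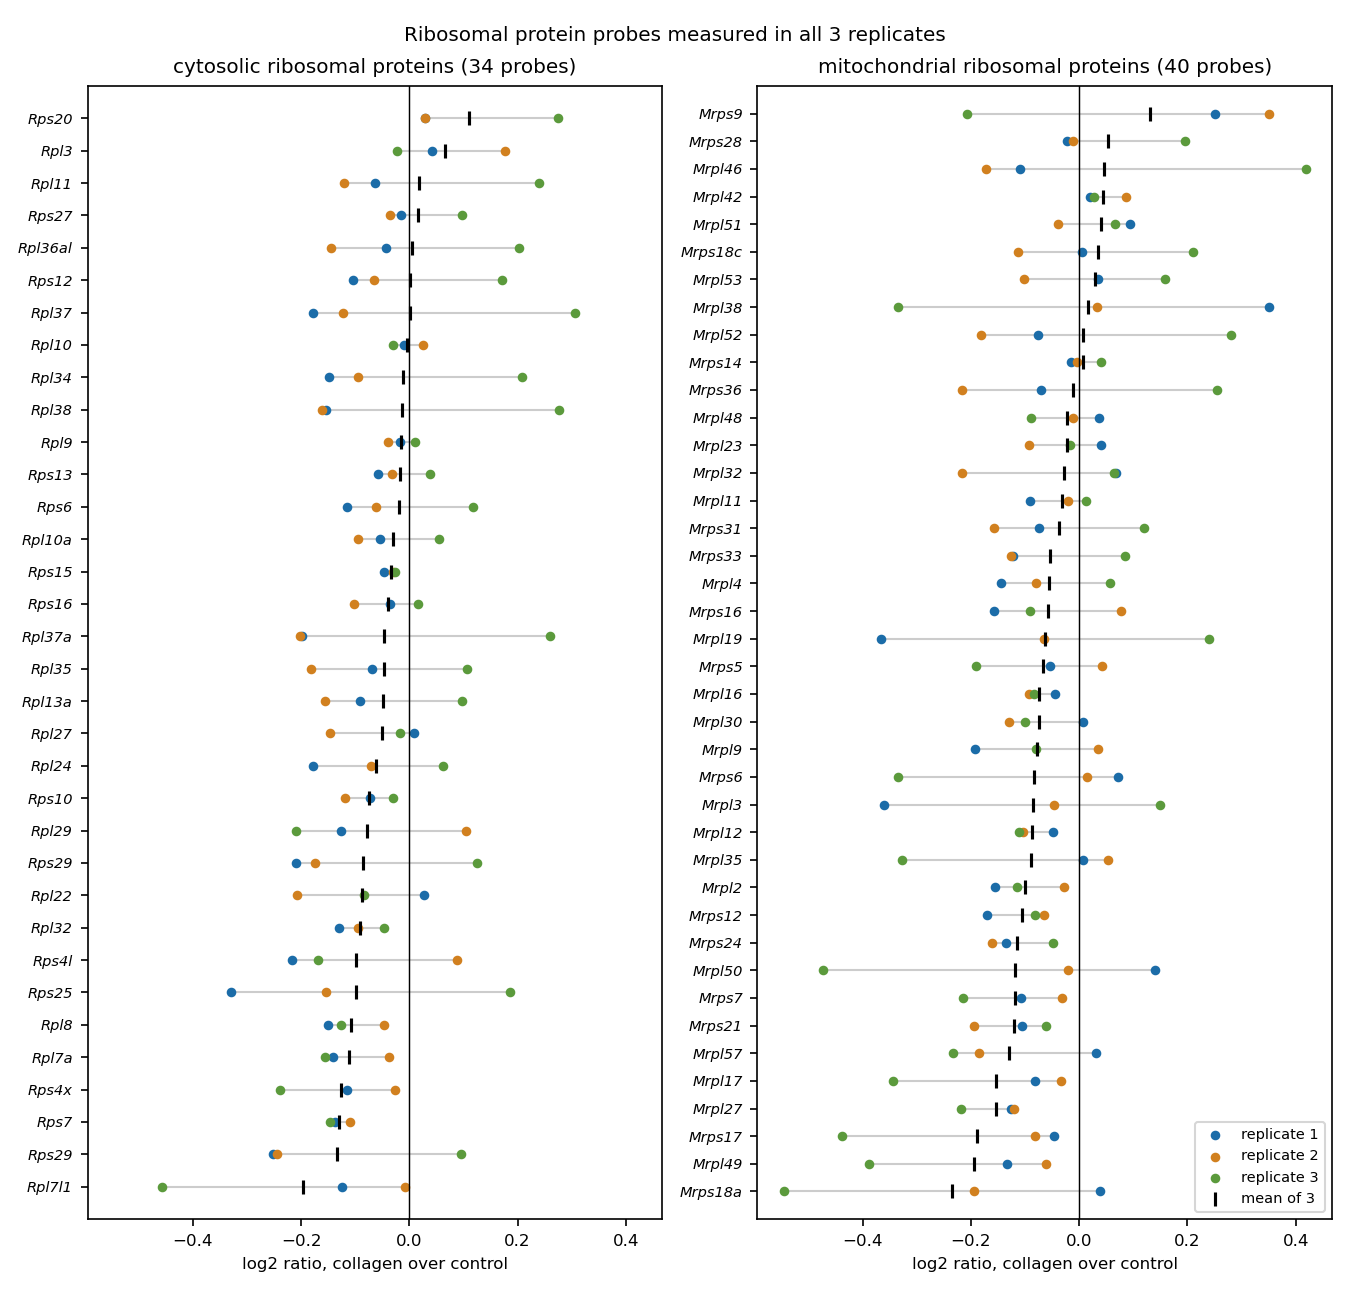
Log2 ratio of collagen over control (horizontal axis) for each cytosolic (left, 34 probes) and mitochondrial (right, 40 probes) member, sorted by mean; coloured points are the 3 replicates, grey lines their range and black ticks the mean. Most ranges cross 0, and replicate 3 often lies away from replicates 1 and 2.

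A sign shared by all 3 replicates was uncommon. It was below 0 for 8 cytosolic and 11 mitochondrial members, together 25.7% of the members against 20.8% of all tested probes, and above 0 for 1 of each, Rps20 and Mrpl42, together 2.7% against 8.92%. The spread over replicates was like that of the array: the median SD was 0.121 for cytosolic members, 0.122 for mitochondrial members and 0.145 for all tested probes.

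Among proteins of the cytosolic small subunit, Rps7 had a negative ratio with a narrow spread. This protein, mutated in some human families with Diamond-Blackfan anaemia, stood at -0.14, -0.11 and -0.15 in replicates 1, 2 and 3, a mean of -0.13 ± 0.02 (SD, n = 3; limma adjusted p = 0.827). Its replicates lay close together, all below 0, but the 2 pairs of replicate 1 stood at -0.24 and -0.04. The mean of Rps7 also moved with the processing. It was -0.09 without background correction, -0.11 with print-tip loess, -0.21 with normexp and -0.44 with median centring. Rps4x, the X-linked form of the S4 protein, stood at -0.11, -0.03 and -0.24, a mean of -0.13 ± 0.11 (limma adjusted p = 0.827). Its replicates were all below 0 but replicate 3 was far lower than replicate 2. Rps15, part of the head of the subunit near the decoding site, had the smallest spread of the cytosolic members, with -0.05, -0.03 and -0.03 and a mean of -0.03 ± 0.01 (limma adjusted p = 0.928). Its single arrays lay much further apart. With collagen RNA in Cy5 and Cy3 they stood at -0.53 and 0.48 in replicate 3, and at 0.24 and -0.34 in replicate 1. The spread also leaves out an array of replicate 1 at 0.21, whose dye-swap partner gave no value. The fit on the 10 arrays with a replicate block gave 0.0039 for Rps15.

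Rps29, a small zinc-binding protein of the 40S subunit, was the one gene with 2 tested probes. The first gave -0.25, -0.24 and 0.10, a mean of -0.13 ± 0.20 (SD, n = 3; limma adjusted p = 0.831), and the second -0.21, -0.17 and 0.13, a mean of -0.09 ± 0.18 (limma adjusted p = 0.859). Both probes of the gene thus showed replicates 1 and 2 below 0 and replicate 3 above it. Rps20, another protein of the head of the subunit, had the highest cytosolic mean: 0.03, 0.03 and 0.28 in the replicates, a mean of 0.11 ± 0.14 (limma adjusted p = 0.831). Its replicates 1 and 2 were near 0 and replicate 3 gave most of the mean. With collagen RNA in Cy5 and Cy3, the arrays of replicate 3 stood at -0.42 and 0.97. Those behind replicates 1 and 2 also had opposite signs, at 0.29 and -0.23 and at -0.03 and 0.09. The shared sign of Rps20 thus holds only after averaging over the dye orientations. Rps27, a zinc-finger protein, stood at -0.01, -0.04 and 0.10, a mean of 0.02 ± 0.07 (limma adjusted p = 0.968), again with replicate 3 alone above 0.

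In the cytosolic large subunit the lowest member was Rpl7l1, a paralogue of Rpl7 that acts in making the subunit. It stood at -0.12, -0.01 and -0.46, a mean of -0.20 ± 0.23 (SD, n = 3; limma adjusted p = 0.827), so replicate 3 gave most of the difference. Rpl7a stood at -0.14, -0.04 and -0.16, a mean of -0.11 ± 0.06, and Rpl8, which lies near the peptidyl transferase centre, at -0.15, -0.05 and -0.13, a mean of -0.11 ± 0.05 (limma adjusted p = 0.827 for both). Both genes were below 0 in every replicate, with replicate 2 the nearest to 0. Rpl3, which also reaches towards that centre, stood at 0.04, 0.18 and -0.02, a mean of 0.07 ± 0.10 (limma adjusted p = 0.872), with replicate 3 alone below 0.

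Several large-subunit members changed sign in replicate 3. Rpl37a, a small zinc-binding protein, had the widest spread of the cytosolic members, with -0.20, -0.20 and 0.26 and a mean of -0.05 ± 0.27 (SD, n = 3; limma adjusted p = 0.935). Rpl11, which binds the p53 regulator Mdm2 when ribosome assembly is disturbed, stood at -0.06, -0.12 and 0.24, a mean of 0.02 ± 0.19 (limma adjusted p = 0.971). Rpl36al, a close paralogue of Rpl36a, stood at -0.04, -0.14 and 0.20, a mean of 0.01 ± 0.18 (limma adjusted p = 0.991). In each of these, replicates 1 and 2 were below 0 and replicate 3 above. Ribosomal protein genes have many processed pseudogenes, and Rpl36al, Rpl7l1 and Rps4l have close paralogues, so signal shared between copies cannot be told apart here; the probe sequences were not used.

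The mitochondrial members with the lowest means were set mainly by replicate 3. Mrps18a, named for the small subunit but a protein of the large one in mammals, stood at 0.04, -0.20 and -0.55, a mean of -0.23 ± 0.29 (SD, n = 3; limma adjusted p = 0.827). Mrpl49 stood at -0.13, -0.06 and -0.39, a mean of -0.19 ± 0.17, and the small-subunit protein Mrps17 at -0.05, -0.08 and -0.44, a mean of -0.19 ± 0.22 (limma adjusted p = 0.827 for both). Mrpl17 stood at -0.08, -0.03 and -0.34, a mean of -0.15 ± 0.17 (limma adjusted p = 0.827). In these 4 genes replicate 3 was the lowest, and Mrps18a alone had a replicate above 0. For Mrps17 and Mrpl17 that lowest value averages 2 arrays of opposite sign. Where Cy5 carried the collagen RNA, Mrps17 stood at 0.19 and Mrpl17 at 0.09. Where Cy3 carried it, they stood at -1.07 and -0.78. Both arrays of the pair were below 0 for Mrps18a (-0.94 in Cy5, -0.15 in Cy3) and Mrpl49 (-0.15 in Cy5, -0.62 in Cy3). With median centring the mean of Mrps17 was 0.13, while those of Mrps18a, Mrpl49 and Mrpl17 were -0.25, -0.12 and -0.03.

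Another group of mitochondrial members had ratios below 0 in each replicate, by amounts that varied between replicates, and none passed the test. Mrpl27, the counterpart of bacterial L27 in the large subunit, stood at -0.13, -0.12 and -0.22, a mean of -0.15 ± 0.06 (SD, n = 3; limma adjusted p = 0.827). Of the small-subunit proteins, 4 had means between -0.12 and -0.11, each with a limma adjusted p of 0.827: Mrps21 stood at -0.11, -0.19 and -0.06, and Mrps7 at -0.11, -0.03 and -0.21. Mrps24 stood at -0.14, -0.16 and -0.05, and Mrps12, a protein of the decoding centre, at -0.17, -0.06 and -0.08. Which replicate was lowest differed from gene to gene. Mrpl16 had the smallest spread of the mitochondrial members, with -0.05, -0.09 and -0.08 and a mean of -0.07 ± 0.03 (limma adjusted p = 0.852). That spread leaves out an array of replicate 1 at 0.42, whose dye-swap partner gave no value; the fit on the 10 arrays with a replicate block, which uses it, gave 0.0077 for Mrpl16. The same fit gave -0.01 for Mrps24. With median centring Mrps7 was above 0, at 0.15, and Mrps12 stood at -0.40. Mrpl27, Mrps21, Mrps24 and Mrpl16 stayed below 0 there.

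At the upper end of the mitochondrial members only Mrpl42 was above 0 throughout, with 0.02, 0.09 and 0.03, a mean of 0.04 ± 0.04 (SD, n = 3; limma adjusted p = 0.903). Mrps9, a small-subunit protein, had the highest mean but not a shared sign: 0.25, 0.35 and -0.21, a mean of 0.13 ± 0.30 (limma adjusted p = 0.852). Mrpl38 had the widest spread of all members, with 0.35, 0.03 and -0.33 and a mean of 0.02 ± 0.34 (limma adjusted p = 0.983). Its replicates 1 and 3 lay at opposite ends. Mrpl46 stood at -0.11, -0.17 and 0.42, a mean of 0.05 ± 0.32 (limma adjusted p = 0.945), and the small-subunit protein Mrps28 at -0.02, -0.01 and 0.20, a mean of 0.05 ± 0.12 (limma adjusted p = 0.895). In both, replicate 3 alone was above 0. Mrpl51 stood at 0.09, -0.04 and 0.07, a mean of 0.04 ± 0.07 (limma adjusted p = 0.915). The value for Mrpl51 was -0.26 in the fit on the 10 arrays with a replicate block, which includes an array of replicate 2 at -1.80 without a partner, and 0.27 with median centring.

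The comparison of the 2 ribosomes turned on replicate 3. The median of cytosolic members was -0.11, -0.095 and 0.047 in replicates 1, 2 and 3 (mean -0.052 ± 0.086, SD, n = 3), and that of mitochondrial members -0.051, -0.065 and -0.081 (mean -0.066 ± 0.015). The medians of all tested probes were -0.038, -0.024 and -0.019. As processed, the mitochondrial median was below 0 in all 3 replicates, while the cytosolic median was below 0 in replicates 1 and 2 and above it in replicate 3. The mitochondrial median of replicate 3 was 0.032 with last scans only and -0.0082 with median centring. The cytosolic minus mitochondrial median was -0.058, -0.030 and 0.13, a mean of 0.013 ± 0.10, so the difference between the subgroups was smaller than its spread over replicates and had no shared sign.

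The counts show the same turn. Of 34 cytosolic members, 30, 29 and 14 were below 0 in replicates 1, 2 and 3, where 62.6%, 57.9% and 53.2% of all tested probes were. Of 40 mitochondrial members, 25, 32 and 24 were. In a pattern chosen after the values were seen, 19 of 34 cytosolic members (55.9%) were below 0 in replicates 1 and 2 and above 0 in replicate 3, against 11 of 40 mitochondrial members (27.5%) and 17.5% of all tested probes. Replicate 3 is a single dye-swap pair.

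**Figure D2:**
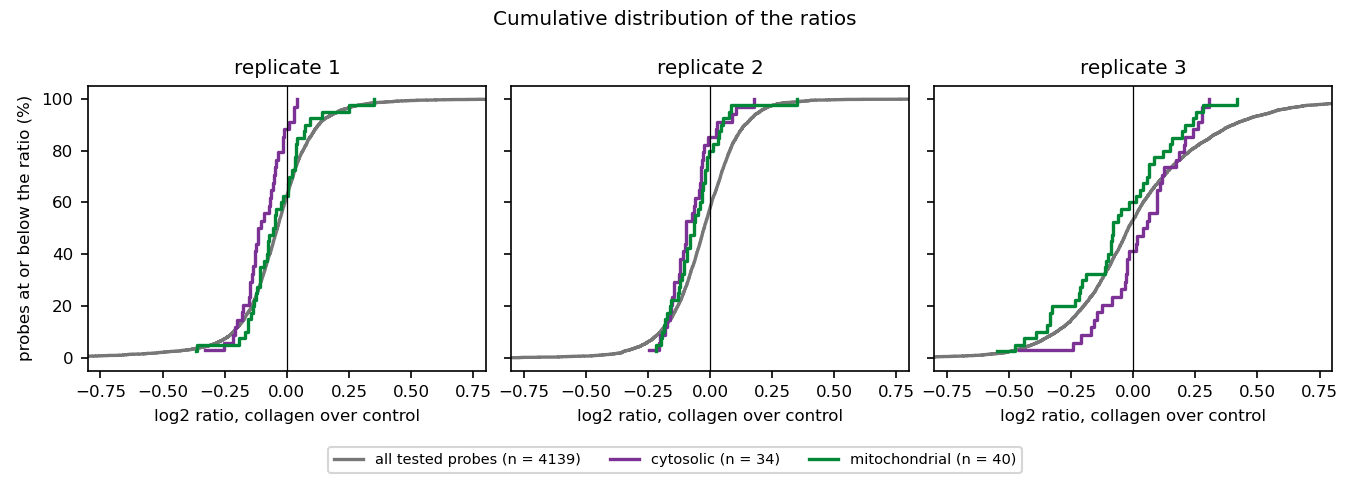
Share of probes at or below a given log2 ratio of collagen over control (horizontal axis) in each replicate, for 34 cytosolic, 40 mitochondrial and 4139 tested probes. The cytosolic curve lies left of the grey curve around 0 in replicates 1 and 2 and right of it in replicate 3; without background correction, with median centring or with print-tip loess the cytosolic median of replicate 3 is below 0 instead.

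That turn depended on how the arrays were normalised. The cytosolic median of replicate 3 was 0.047 as processed, but -0.077 without background correction, -0.12 with median centring and -0.031 with print-tip loess. With saturated spots left out it was 0.067, over 22 cytosolic members. The share of cytosolic members with the pattern, 55.9% as processed, was 38.2% without background correction (18.5% of all tested probes), 20.6% with print-tip loess (14.2%) and 11.8% with median centring (17.3%). It was 17.4% of 23 members in the authors' value table (13.2%). It was 52.9% with normexp, 50% with scaling between arrays or first scans only, 44.1% with last scans only and 54.5% without saturated spots, where 16.6% to 17.9% of all tested probes had it. In replicate 3 the ratio after loess also followed the brightness of the cytosolic probes. Brightness here is a probe's mean over all arrays that gave a value, not over replicate 3 alone. Across the 34 members Pearson's r was 0.58, against -0.055 and -0.35 in replicates 1 and 2, and -0.19 over all tested probes in replicate 3. These correlations run across probes that share arrays, so they are descriptions.

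Agreement between replicates across members was weak, and negative with replicate 3. Across the 34 cytosolic members the ratios of replicates 1 and 2 had a Pearson's r of 0.303, replicates 1 and 3 of -0.0756 and replicates 2 and 3 of -0.442. Across the 40 mitochondrial members the values were 0.282, -0.357 and -0.277, and over all 4139 tested probes 0.11, 0.029 and 0.0054. Members within a replicate share their arrays, so these too are descriptions.

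**Figure D3:**
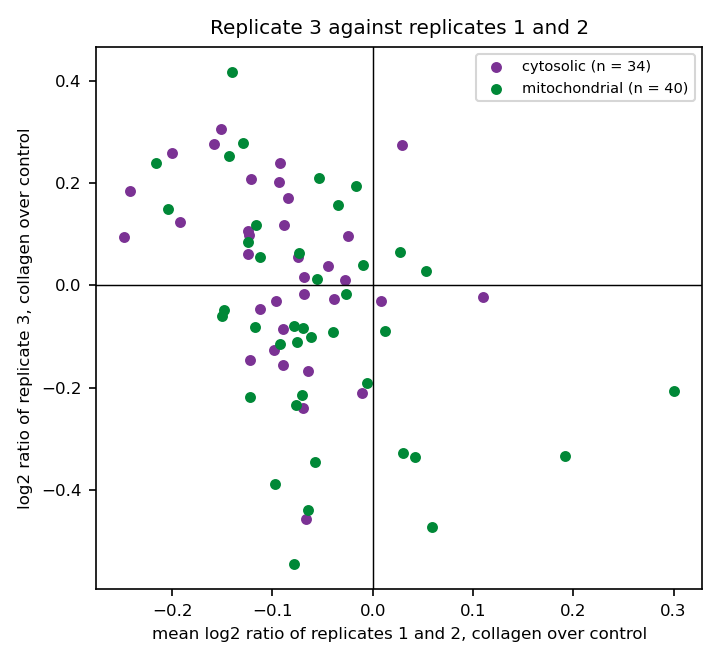
Log2 ratio of collagen over control in replicate 3 (vertical axis) against the mean of replicates 1 and 2 (horizontal axis) for 34 cytosolic and 40 mitochondrial members. Most cytosolic points lie left of 0, some above and some below 0 in replicate 3, and the points form no rising trend.

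The median dye effect of the members was larger in size than their median collagen ratio. The dye effect is channel B over A, averaged over both orientations, and its log2 median was 0.13 for cytosolic and 0.15 for mitochondrial members against 0.020 for all tested probes. It was above 0 for 25 of 34 cytosolic and 37 of 40 mitochondrial members, where 54.6% of all tested probes were. No member passed limma's test of this effect (0 of 74 at an adjusted p under 0.05), while 55 of 4139 tested probes (1.33%) did. By replicate the cytosolic median of channel B over A was 0.27, 0.18 and -0.11, and the mitochondrial median 0.23, 0.21 and 0.10. The cytosolic dye effect thus turned sign in replicate 3, as the collagen ratio did; its part in that ratio was not tested.

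On single arrays the sign of the cytosolic median differed between the dye orientations in every pair. With collagen RNA in Cy5, the cytosolic median was 0.32 and 0.15 in the pairs of replicate 1 and 0.26 and 0.047 in those of replicate 2. In the opposite orientation the same pairs gave -0.58 and -0.26, and -0.46 and -0.26. In replicate 3 the order was reversed, with -0.040 in Cy5 and 0.12 in Cy3. Averaged within pairs, the cytosolic members had medians of -0.19 and -0.047 in replicate 1, -0.10 and -0.083 in replicate 2 and 0.047 in replicate 3; the mitochondrial medians were -0.21 and 0.014, -0.11 and -0.050, and -0.081. The first pair of replicate 1, where all probes had a median of -0.15, gave values for 21 cytosolic and 23 mitochondrial members.

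**Figure D4:**
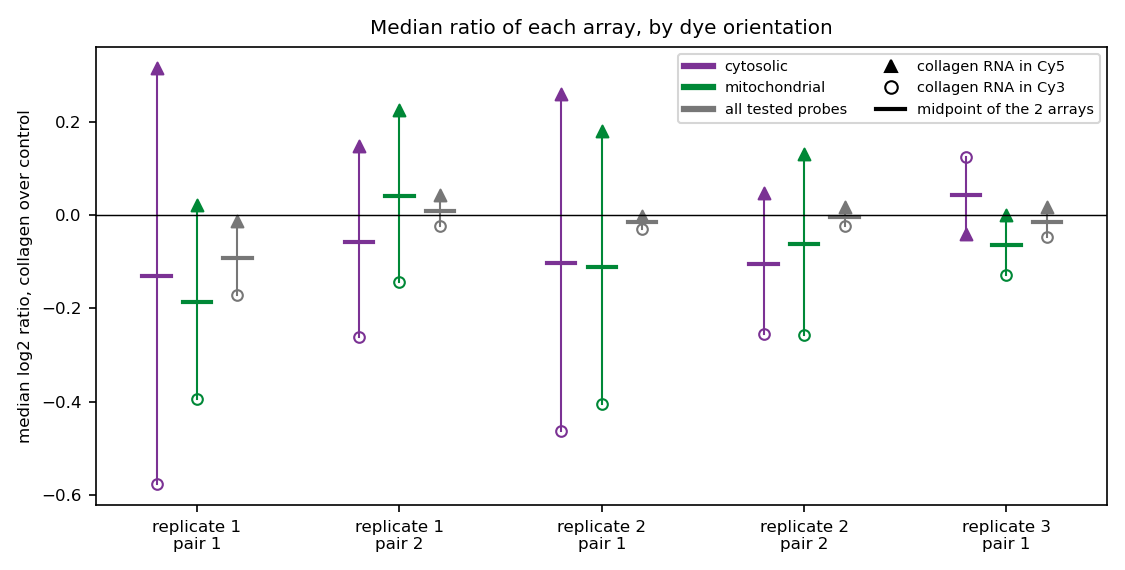
Median log2 ratio of collagen over control (vertical axis) on each array, by replicate and pair, for cytosolic, mitochondrial and all tested probes; triangles are arrays with collagen RNA in Cy5, circles those with it in Cy3, and bars the midpoint of both. For cytosolic members the 2 arrays of a pair lie on opposite sides of 0 in every pair. The cytosolic medians of replicate 3 are in the opposite order to those of the other pairs. For mitochondrial members and all tested probes the Cy5 array lies above the Cy3 array in every pair.

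Saturation separated the subgroups. Spots with saturated pixels, which compress a ratio, made up 274 of 854 cytosolic spots (32.1%) and 6 of 977 mitochondrial spots (0.614%), against 4.26% over all tested probes. They touched 32 of 34 cytosolic and 6 of 40 mitochondrial members. The cytosolic share rose from 15.1% in the first scan of an array to 48.5% in the third, and was 38.9%, 33% and 19.2% in replicates 1, 2 and 3. Without these spots 22 cytosolic members remained, with a median of -0.063, and the median of the first scans alone was -0.036.

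RefSeq start sites (build GRCm38.p6, 250 bases before to 50 after the start) were at hand for 29 of 36 cytosolic and 46 of 52 mitochondrial genes, and show what the 2 families share beyond their symbols. The median GC content of these promoters was 59% in both families and 52.7% over all promoters, and shares of motifs were not matched for it. A longest run of at least 8 C or T bases on the gene's strand, overlapping the 30 bases on either side of the start, was found in 19 cytosolic promoters (65.5%) and 15 mitochondrial ones (32.6%), against 27.2% of 27025 promoters. The motif CCGGAAG, the core bound by ETS-family factors, was found on either strand in 9 cytosolic (31%) and 17 mitochondrial (37%) promoters, against 9.12% of all. AAGATGG, the core of the YY1 motif, whose first 3 letters can overlap the end of CCGGAAG, was found on either strand in 6 (20.7%) and 9 (19.6%), against 6.48%. TATAAA was found on either strand in 0 cytosolic and 4 mitochondrial (8.7%) promoters, against 14.2%. These are matches of letters and not binding sites.

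All 6 cytosolic windows are shown in which that run, in capitals, spans the start (20.7%, against 3.05% of all promoters and 1 mitochondrial promoter, of Mrpl45); each window holds 40 bases before and 20 after it, 5′ to 3′ on the gene's strand. Rpl7a lies at chr2:26910767-26910826 on the plus strand with a run of 21 bases, Rpl35 at chr2:39005112-39005171 on the minus strand with 18, and Rps10 at chr17:27635225-27635284 on the minus strand with 13. Rpl38 lies at chr11:114668540-114668599 on the plus strand and Rps6 at chr4:86857348-86857407 on the minus strand, each with 10, and Rps27 at chr3:90213629-90213688 on the minus strand with 9.
Rpl7a: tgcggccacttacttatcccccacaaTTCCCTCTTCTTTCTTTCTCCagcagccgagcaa
Rpl35: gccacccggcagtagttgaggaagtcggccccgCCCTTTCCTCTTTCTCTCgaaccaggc
Rps10: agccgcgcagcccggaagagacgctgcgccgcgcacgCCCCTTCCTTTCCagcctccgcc
Rpl38: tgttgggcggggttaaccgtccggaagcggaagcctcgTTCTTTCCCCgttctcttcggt
Rps6: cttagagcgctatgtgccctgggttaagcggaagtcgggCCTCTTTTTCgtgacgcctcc
Rps27: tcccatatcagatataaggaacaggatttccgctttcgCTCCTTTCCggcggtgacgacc
For the 2 mitochondrial members of lowest mean ratio that hold CCGGAAG inside the window, it is shown with that motif in capitals instead: Mrps18a at chr17:46110964-46111023 and Mrpl57 at chr14:57826199-57826258, both on the plus strand.
Mrps18a: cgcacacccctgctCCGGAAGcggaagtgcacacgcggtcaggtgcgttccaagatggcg
Mrpl57: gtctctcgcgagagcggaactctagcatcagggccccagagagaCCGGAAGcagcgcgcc
The mean ratio was -0.11 for Rpl7a, -0.07 for Rps10, -0.05 for Rpl35, -0.02 for Rps6, -0.01 for Rpl38 and 0.02 for Rps27.

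Ribosome proteins whose symbols fall outside the rule gave 2 further values. Fau, which encodes a ubiquitin-like protein fused to the small-subunit protein S30, stood at -0.08, -0.10 and 0.10, a mean of -0.03 ± 0.11 (SD, n = 3; limma adjusted p = 0.945). Ptcd3, a protein of the mitochondrial small subunit, stood at 0.21, 0.15 and 0.04, a mean of 0.13 ± 0.09 (limma adjusted p = 0.827), above 0 in every replicate. Chchd1, of the same subunit, had a probe but no value in all 3 replicates.

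The machinery that builds the ribosomes gave no called gene either. Of 79 listed ribosome biogenesis genes, 41 have a probe and 21 were tested: limma called 0 in either direction, 9 were lower and 12 higher where 59.2% of all tested probes were lower, and the median was 0.02, with replicate medians of -0.04, -0.07 and 0.13. The lowest was Taf1b, a subunit of the RNA polymerase I initiation factor SL1, at -0.51, -0.34 and 0.10 (mean -0.25, limma adjusted p = 0.827). The highest was Tsr3, which modifies the small-subunit RNA, at 0.96, 0.47 and 0.11 (mean 0.51, limma adjusted p = 0.827). Tsr3 fell outside the range of all 74 members, though its replicates spread widely.

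Of 30 genes of mitochondrial translation and ribosome assembly, 18 have a probe and 12 were tested, with 0 called by limma, 8 lower and 4 higher (59.2% of all tested probes were lower) and a median of -0.06. Rmnd1, needed for mitochondrial translation, was the lowest at -0.53, -0.08 and -0.25 (mean -0.29, limma adjusted p = 0.827), and the initiation factor Mtif3 the highest at 0.18, 0.07 and 0.49 (mean 0.25, limma adjusted p = 0.827). Each kept its sign in every replicate. Of 20 regulators of the translation of ribosomal protein messages, 8 have a probe and 4 were tested, all 4 lower (59.2% of all tested probes were) and 0 called, with replicate medians of -0.21, -0.08 and 0.10. Rptor, the mTOR partner that recruits its substrates, was the lowest at -0.25, -0.23 and 0.14 (mean -0.12, limma adjusted p = 0.84), and the kinase Akt1 the highest at 0.05, 0.06 and -0.25 (mean -0.05, limma adjusted p = 0.921).

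Cell type markers moved between replicates as well, with 0 called by limma in any list. The 7 tested dopamine neuron markers had replicate medians of -0.0029, 0.034 and 0.26, highest in replicate 3 as for the cytosolic members; 3 of the 7 (Nr4a2, Pitx3 and Lmx1b) were below 0 there. The 5 general neuron markers had -0.11, -0.020 and -0.084, and the 4 of microglia and macrophages -0.040, -0.092 and -0.13. The 5 cerebellar markers had -0.26, -0.15 and -0.20; all 5 means were below 0, where 59.2% of all tested probes were, and Neurod1 and Zic4 alone were below 0 in every replicate. Of oligodendrocytes and astrocytes 2 markers each were tested, with all means below 0, but Aldh1l1 alone was below 0 in every replicate. Replicate medians were 0.055, -0.064 and -0.18 for oligodendrocytes and -0.024, -0.055 and -0.11 for astrocytes. The part of these cell types in the ribosomal protein ratios was not tested.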

How the data were processed

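Per the file headers, the deposited scanner files hold background-corrected spot intensity values in channels A and B, a background intensity and a flag. A saturation factor per spot, deposited in the same files, was read here as the fraction of unsaturated pixels. The authors' deposited value table holds a score per probe, of unstated log base and direction, and served as an alternative. Its correlation with log2 channel B over A of single scans was 0.37 to 0.64 with collagen RNA in Cy5. With collagen RNA in Cy3 it was -0.38 to -0.55. Both ranges are for spots counted in printing-block order, the order used here to match every spot to its probe. With spots counted in slide order the correlations of all scans lay between -0.036 and 0.11. The table was used as given, without turning by the dye labels, so its medians are on its own scale. The quantifying software is not given in the labels. The 10 arrays gave 29 scans.

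A spot entered where neither channel was flagged X, Y or Z and both exceeded 0. Their log2 ratios were normalised by loess within each scan (limma 3.58.1, R 4.3.3, span 0.3, 4 iterations), averaged to arrays, pairs and 3 replicates, and turned to collagen over control by the dye labels. Means of the 3 replicates were tested against 0 with limma (lmFit, eBayes, two-sided) over all probes measured in all 3, with Benjamini-Hochberg adjustment over all of them. The eBayes step draws the spread of each probe towards that of all tested probes. Standard errors, p-values and intervals of members with a narrow spread thus rest largely on the array as a whole. The standard error was 0.073 for Rps7 (SD 0.020) and 0.073 for Rps15 (SD 0.011), against 0.138 for Mrpl38 (SD 0.34). The number of arrays limits the precision. The procedure was tested on simulated data.

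Named in each subgroup were the 5 highest and 5 lowest means, members with one sign in all 3 replicates and a mean over 0.1 in size, the smallest and largest SD, and genes with several tested probes; in lists, the highest and lowest gene and ribosome proteins outside the symbol rule. Genes added to these, chosen after their values were seen, are Mrpl57, Rpl35, Rps10, Rpl38 and Rps6, shown for their sequences, and Rps4l, named for its paralogue, and markers named with a direction but no value. Members, lists and tests were chosen with earlier results of these data known. Alternatives covered background correction, normalisation, scans, saturated and dim spots, replicates, the unit of replication, direction, symbols, probes and the value table. Arrays with the same number share the RNA of one replicate, so a block on that number joins repeat arrays.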

Additional observations from a re-analysis of the deposited data

Results flagged for a closer look

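In 50 sets of 4 or 5 arrays of one dye orientation, the gap of the highest or lowest array to its neighbour was set against Dixon's critical value. Most sets held a named member. The others held both subgroup medians, their difference and the number of members with a ratio. In 8 sets, all of named members, 1 array stood apart. Chance marks about 1 in 20 independent sets, but these sets share arrays and several members were named for an extreme mean or SD, so that rate is no yardstick for the 8. With collagen RNA in Cy5, the first pair of replicate 1 gave 1.407 for Mrpl38 (next array 0.2102), 0.8674 for Rpl37a (next 0.08377) and 0.4221 for Mrpl16 (next 0.01319). In the same orientation replicate 3 gave -0.5338 for Rps4x (next 0.09332) and -0.9437 for Mrps18a (next 0.1776). With collagen RNA in Cy3, replicate 3 gave -0.8312 for Rpl7l1 (next -0.05663) and -0.5223 for Mrpl38 (next -0.1121), and the first pair of replicate 2 gave -1.804 for Mrpl51 (next -0.2421). Each of these is 1 array, and all 8 came from replicate 3 or the first pair of replicates 1 and 2.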

How the results depend on the processing

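Limma called 0 members under every alternative run. It called 0 of all tested probes too, except for 55 where channel A was taken for control RNA whatever the dye label. That run is the fit of the dye effect given above, with the same 55 probes. Collagen and control RNA cancel within its dye-swap pairs, so it is no comparison of the groups. Its cytosolic median was 0.126 and its mitochondrial median 0.154. Elsewhere the cytosolic median kept its sign, with -0.0091 without replicate 2, -0.022 without replicate 1 and -0.089 without replicate 3. The mitochondrial median lay between -0.063 and -0.070 without 1 replicate, and the difference of medians between -0.020 and 0.055. The mitochondrial median was 0.0026 with median centring, -0.035 with print-tip loess, -0.051 with scaling, -0.047 without background correction, -0.049 with first and -0.042 with last scans, -0.039 when recentred, and -0.016 in the value table. It was -0.090 over the 5 pairs, which left 20 members. Without the first pair of replicate 1 or 2, an alternative added after the data were seen, it was -0.046 each, and without both -0.038. The causes were not tested. With the 10 arrays fitted with a replicate block the medians were -0.072 and -0.079, their difference 0.0074, and 0 members were called (consensus correlation -0.16); without the block they were -0.064 and -0.079. Of 679 values of named members under alternatives, 607 moved by less than 1 SD and 70 changed sign, 51 of 649 without the fixed channel reading. Many of the 607 could not move so far. A member's mean stays as it is with updated symbols (30 values), one probe per gene (29), probes in at least 2 replicates (30) or dim probes left out (28). Leaving out 1 of 3 replicates (30 values each) cannot move it by 1 SD. Median centring, which can, moved 11 of 30. Having 3 replicates, 1 of them a single pair, limits what can be read, as do the saturated cytosolic spots.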
